A study of Mus musculus with 9 samples.

Results

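The genes of the proteasome were followed in mouse brain after intracerebral haemorrhage. They are all entries of the deposited expression table whose symbol is Psma, Psmb, Psmc, Psmd, Psme, Psmf or Psmg followed by a number. These symbols covered 48 of the 33586 entries. The haemorrhage model was made with collagenase, which degrades the collagen of vessel walls, and total RNA of brain tissue beside the haematoma was sequenced in 9 libraries. The libraries form an intervention group (P), an experimental group (M) and a control group (C) of 3 each. The series title names a tetrahedral nucleic acid nanomaterial that carries miR-124, a microRNA abundant in neurons. The sources used here do not give which agent each group received, whether the control group had a haemorrhage, the time of sampling, or the strain, sex and age of the mice. The labels do not say that the 3 libraries of a group came from separate animals, so the p-values measure only the spread between these samples, which may be technical.

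The proteasome is the protease that degrades proteins tagged with ubiquitin. Its 20S core is a barrel of alpha and beta rings, and the 19S cap binds, unfolds and feeds in the substrates. The constitutive catalytic subunits are Psmb5 (chymotrypsin-like activity), Psmb6 (caspase-like activity) and Psmb7 (trypsin-like activity). In immune cells, and in other cells exposed to interferon gamma, newly built cores carry Psmb8, Psmb9 and Psmb10 in their places, and such cores are called immunoproteasomes. Psme1 and Psme2 form PA28 alpha-beta, a ring that binds the end of the core and is also induced by interferon gamma. Microglia are known to hold immunoproteasome subunits in the brain.

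Values are FPKM, fragment counts scaled to transcript length and library size, so levels can be set side by side between genes. Differences were tested with limma on log2(FPKM + 1), with Benjamini-Hochberg adjustment over the 14570 genes that reached 1 FPKM in at least 3 of the 9 libraries. A gene passed at an adjusted p under 0.05. Of the 48 genes, 46 were tested. Psma8 and Psmb11 stayed under the filter, and Psmb8 and Psmb9 were under 1 FPKM in every control library, so that they passed only through the other libraries. The same holds for Tap1 and Irf8, which are not proteasome subunits and whose values are given beside the results, so their tests too are of genes that were tested because they were higher outside control. Between 13408 and 14260 genes reached 1 FPKM per library. The table holds no counts. In each library, FPKM multiplied by transcript length had a most frequent value of 50.2 to 64.4 for genes with a single transcript. If that step stands for 1 fragment, depths were 15500000 to 19900000 fragments, with intervention 3, control 1 and control 2 at 15800000 or fewer and the other 6 libraries at 19000000 or more. A smaller peak lay at 0.5 times that value in every library, and if it stands for 1 fragment instead, depths were 31000000 to 39800000 fragments, so the absolute depth is uncertain.

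Promoter windows are shown for the genes on which the results turn: both immunoproteasome genes of the major histocompatibility complex, Psme1, and Psmb5 as the constitutive counterpart of Psmb8. Each runs 5′ to 3′ along the strand of the gene, with 250 bases before and 50 after the gene start (RefSeq, GRCm38.p6). Capitals mark letters that match any of 4 motifs searched on both strands: the interferon-stimulated response element ISRE (GAAA, any 2 bases, GAAA), the interferon gamma-activated site GAS (TTC, any 3 bases, GAA), the NF-kB site (GGGA, any 4 bases, CC) and the antioxidant response element ARE (TGA, any 4 bases, GC).
Psmb8, chr17:34197945-34198244, plus strand: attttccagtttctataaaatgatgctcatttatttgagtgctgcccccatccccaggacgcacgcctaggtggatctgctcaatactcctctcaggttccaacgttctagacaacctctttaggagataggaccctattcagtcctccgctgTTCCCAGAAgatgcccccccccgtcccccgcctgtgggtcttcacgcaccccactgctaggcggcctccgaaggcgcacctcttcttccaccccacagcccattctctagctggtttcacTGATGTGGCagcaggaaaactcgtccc
Psmb9, chr17:34187281-34187580, minus strand: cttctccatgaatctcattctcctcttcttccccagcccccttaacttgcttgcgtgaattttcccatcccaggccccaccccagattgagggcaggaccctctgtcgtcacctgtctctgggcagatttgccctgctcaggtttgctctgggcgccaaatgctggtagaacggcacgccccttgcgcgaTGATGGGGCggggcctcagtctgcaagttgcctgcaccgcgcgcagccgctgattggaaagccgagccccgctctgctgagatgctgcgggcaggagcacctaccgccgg
Psme1, chr14:55578244-55578543, plus strand: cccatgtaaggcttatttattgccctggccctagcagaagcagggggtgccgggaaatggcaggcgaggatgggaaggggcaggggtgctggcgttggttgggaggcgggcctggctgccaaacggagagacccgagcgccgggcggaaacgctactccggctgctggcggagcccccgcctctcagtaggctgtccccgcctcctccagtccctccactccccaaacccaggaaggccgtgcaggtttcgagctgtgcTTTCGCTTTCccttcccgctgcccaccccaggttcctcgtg
Psmb5, chr14:54617946-54618245, minus strand: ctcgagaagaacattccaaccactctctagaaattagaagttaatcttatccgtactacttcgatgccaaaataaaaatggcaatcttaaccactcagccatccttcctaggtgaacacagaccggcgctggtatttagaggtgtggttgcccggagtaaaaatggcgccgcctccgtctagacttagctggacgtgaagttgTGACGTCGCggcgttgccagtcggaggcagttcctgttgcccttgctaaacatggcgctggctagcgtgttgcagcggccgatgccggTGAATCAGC

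The windows are set by RefSeq gene starts. GENCODE M21, used for positions below, places the starts of Psmb8 (34197721), Psmb9 (34187764, minus strand) and Psme1 (55578123) farther upstream. The windows of these genes therefore lie inside the GENCODE genes and hold no sequence before the GENCODE starts. The Psmb8 window held a GAS match, TTCCCAGAA, starting 97 bases before the RefSeq start, and an ARE match after that start. In the Psme1 window an ISRE match on the opposite strand, TTTCGCTTTC, lay at position 10 after the RefSeq start. The windows of Psmb9 and Psmb5 held ARE matches and none of the other 3 motifs. Windows were found for 40 of the 48 genes. An ISRE match occurred in 5 of these 40 genes (12.5%), against 3.99% of all 27025 genes with a window. They were Psmb3, Psmd4, Psmd9, Psme1 and Psmg4, named after the matches were seen, and Psmb8 and Psmb9 were not among them. GAS matches occurred in 3 of the 40 genes (7.5%), against 9.55% of all genes. The NF-kB letters were found in 22.5% of the 40 genes, against 22.9% of all genes. The short ARE letters were found in 57.5%, against 45.0% of all genes. A match describes these letters only and is no evidence of binding.

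Psmb8 and Psmb9 lie in the major histocompatibility complex on chromosome 17, on both sides of Tap1, which encodes a chain of the transporter that carries proteasome products into the endoplasmic reticulum. In GENCODE M21 (mm10), Psmb9 (ENSMUSG00000096727.3) is at chr17:34181987-34187764 on the minus strand. Psmb8 (ENSMUSG00000024338.15) is at chr17:34197721-34201454 on the plus strand and begins 495 bases beyond Tap1. The exons of Psmb9 and Tap1 share 212 bases on opposite strands, which is 5.79% of the Psmb9 exon length. Psmb8 shares 498 exonic bases (14.7%) with the antisense gene Gm20496. The sources used here do not give whether counting used the strand, so reads in these stretches cannot be assigned with certainty.

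In control libraries the levels of the 48 genes ran from 90.3 ± 2.78 FPKM (SD, n = 3) for Psmc5, an ATPase of the 19S cap, down to 0.0317 ± 0.0279 FPKM for Psmb11, the catalytic subunit of the thymus. Psmb5 followed at 77.1 ± 5.36 FPKM and the ATPase Psmc1 at 67.7 ± 2.07 FPKM. All 14 constitutive core subunits had control means of at least 14.4 FPKM. Psmb10 stood at rank 32 with 14.2 ± 1.03 FPKM, within the SD of Psma3 directly above it (14.4 ± 0.287 FPKM). Psmb8 at 0.757 ± 0.138 FPKM and Psmb9 at 0.499 ± 0.056 FPKM held ranks 45 and 46. Only the tissue-specific Psma8 and Psmb11 were lower.

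**Figure D1:**
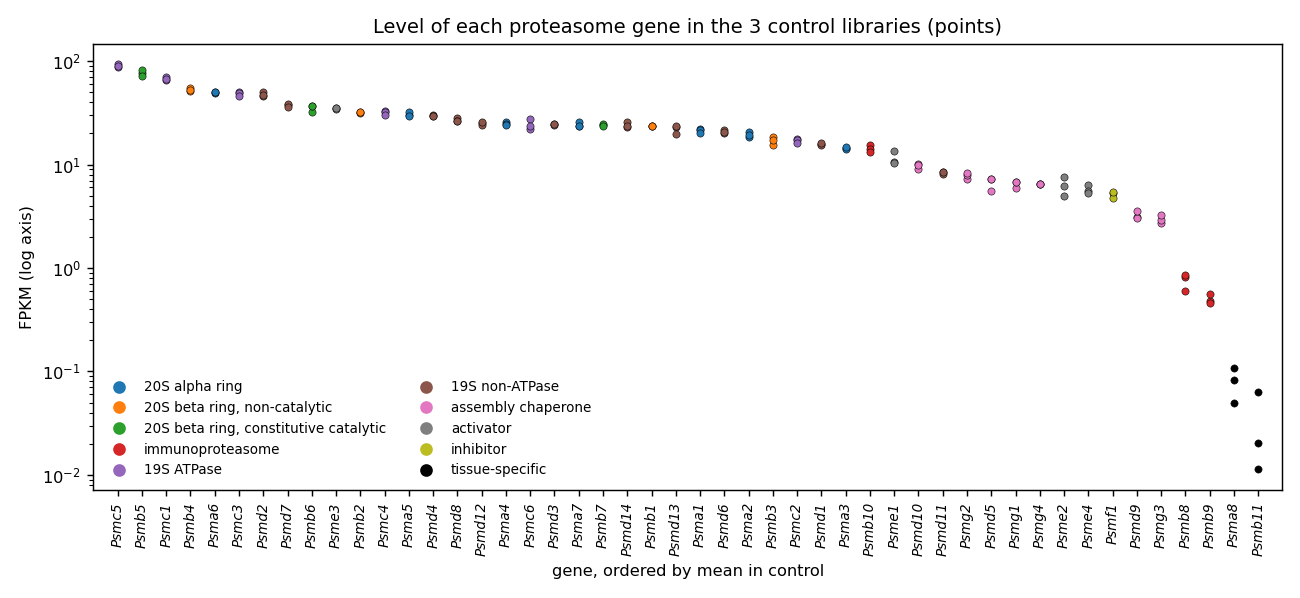
FPKM (log axis) of each of the 48 proteasome genes in the 3 control libraries (points), genes ordered by their mean in control and coloured by role. Psmc5 is highest with a mean of 90.3 FPKM, Psmb10 stands among the 20S and 19S subunits, and Psmb8 and Psmb9 lie below 1 FPKM with only Psma8 and Psmb11 under them.

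The immunoproteasome genes Psmb8 and Psmb9 rose in both the intervention and the experimental group relative to control, while none of Psmb5, Psmb6 and Psmb7 passed the test in either comparison. Psmb10 passed as higher in the intervention group, and its difference between the experimental and control groups fell short of the threshold. Psme1 and Psme2 rose in both groups. Psme3, the third PA28 gene, fell slightly in both.

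Psmb8, which replaces Psmb5, was at 4.43, 3.42 and 3.32 FPKM in intervention libraries, at 5.18, 5.20 and 5.14 FPKM in experimental libraries, and at 0.821, 0.852 and 0.599 FPKM in control libraries. No library of 1 group overlapped another group, and the experimental libraries lay closest together. The mean was 4.91 times the control mean in the intervention group and 6.83 times it in the experimental group. On the log2(FPKM + 1) scale the difference was 1.42 ± 0.10 (SE; limma, Benjamini-Hochberg adjusted p = 1.23e-05) for intervention against control and 1.82 ± 0.10 (adjusted p = 1.35e-06) for experimental against control. This scale understates the change of genes as low as Psmb8.

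Psmb9, which replaces Psmb6, was at 1.53, 1.25 and 1.13 FPKM in intervention libraries, at 1.46, 1.80 and 1.73 FPKM in experimental libraries, and at 0.475, 0.460 and 0.563 FPKM in control libraries. Every intervention and experimental library lay above every control library, and the intervention and experimental libraries overlapped. The log2 difference was 0.62 ± 0.10 (limma adjusted p = 0.0016) for intervention against control and 0.83 ± 0.10 (limma adjusted p = 0.000157) for experimental against control. The calls of Psmb8 and Psmb9 against control held under all 15 other settings that tested them. Except with no filter, those settings tested both genes only through the libraries in which they were higher. With a pseudocount of 0.1 in place of 1, which compresses low values less, the Psmb9 difference was 1.22 for intervention and 1.55 for experimental against control, and after quantile normalization it was 0.33 and 0.53 in these comparisons. Their neighbour Tap1 was at 2.06, 2.32 and 1.74 FPKM in intervention libraries, at 3.29, 3.23 and 3.33 FPKM in experimental libraries, and at 0.849, 0.511 and 0.862 FPKM in control libraries. Tap1 rose against control by 0.81 ± 0.11 in the intervention group (limma adjusted p = 0.000522) and by 1.31 ± 0.11 in the experimental group (limma adjusted p = 1.39e-05).

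Psmb10, which replaces Psmb7 and lies on chromosome 8 outside the complex, was at 22.9, 16.5 and 17.4 FPKM in intervention libraries, at 18.9, 18.2 and 16.7 FPKM in experimental libraries, and at 15.3, 14.1 and 13.3 FPKM in control libraries. The lowest library of each of the 2 groups was above the highest control library, and intervention 1 was the highest of all. The log2 difference was 0.38 ± 0.12 (limma adjusted p = 0.04) for intervention against control. For experimental against control it was 0.32 ± 0.12 (limma adjusted p = 0.0602). The mean was 1.33 times the control mean in the intervention group and 1.26 times it in the experimental group, smaller ratios than those of Psmb8. The intervention call was lost without intervention 1, experimental 2, control 1, control 2 or control 3 (limma adjusted p of 0.0548 to 0.11). Without intervention 1 that difference was 0.24, and in TPM it was 0.24 (limma adjusted p = 0.097). The experimental difference passed without intervention 1 (limma adjusted p = 0.013), after quantile normalization (0.0283), with only the groups compared (0.0203) and with the replicate block (0.0359). In TPM the experimental difference was 0.17 (limma adjusted p = 0.207).

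None of the constitutive counterparts passed against control in FPKM, which does not show that they stayed level. Psmb5 was at 86.8, 66.5 and 77.3 FPKM in intervention libraries, at 73.7, 82.1 and 65.2 FPKM in experimental libraries, and at 76.5, 82.7 and 72.0 FPKM in control libraries. Psmb6 was at 44.1, 36.3 and 38.4 FPKM in intervention libraries, at 36.1, 46.6 and 35.4 FPKM in experimental libraries, and at 32.5, 36.5 and 37.2 FPKM in control libraries. Psmb7 was at 27.3, 23.5 and 24.7 FPKM in intervention libraries, at 21.6, 24.3 and 21.5 FPKM in experimental libraries, and at 24.1, 24.8 and 23.8 FPKM in control libraries. The groups overlapped for each of the 3 genes. Their log2 differences ran from -0.01 to 0.16 for intervention against control (limma adjusted p of 0.355 to 0.957) and from -0.11 to 0.14 for experimental against control (limma adjusted p of 0.31 to 0.677). After rescaling to TPM, all 3 genes were below 0 in experimental against control, with a median of -0.23 beside -0.18 for all genes. Of them Psmb7 passed as lower (-0.27, limma adjusted p = 0.016). For intervention against control the TPM differences ran from -0.16 to 0.01, and none passed.

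**Figure D2:**
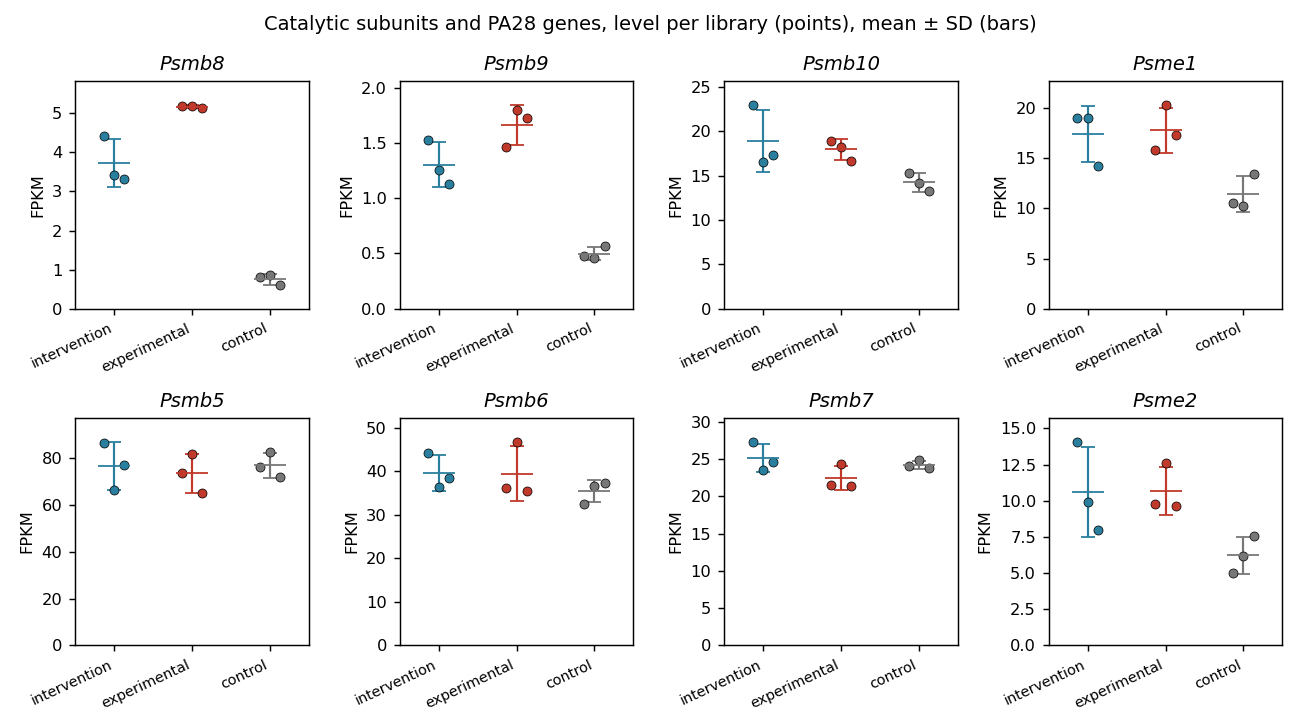
FPKM (linear axis from 0) of the catalytic pairs Psmb8 and Psmb5, Psmb9 and Psmb6, Psmb10 and Psmb7, and of Psme1 and Psme2, per library (points) with the mean and SD of each group (bars, n = 3). Psmb8 is at 3.32 to 4.43 FPKM in intervention, 5.14 to 5.20 FPKM in experimental and 0.599 to 0.852 FPKM in control libraries, while the groups overlap for Psmb5, Psmb6 and Psmb7.

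A ratio of both subunits within a library does not depend on how the library was scaled. The Psmb8 to Psmb5 ratio was 5.11%, 5.14% and 4.30% in intervention libraries, 7.02%, 6.33% and 7.88% in experimental libraries, and 1.07%, 1.03% and 0.832% in control libraries. The 3 groups did not overlap, and the geometric mean of the ratio was 4.97 times that of control in the intervention group and 7.25 times that of control in the experimental group. The Psmb9 to Psmb6 ratio was 3.46%, 3.46% and 2.95% in intervention libraries, 4.05%, 3.85% and 4.89% in experimental libraries, and 1.46%, 1.26% and 1.52% in control libraries. Again no groups overlapped, with 2.33 times the control ratio in the intervention group and 3.01 times it in the experimental group. The Psmb10 to Psmb7 ratio was 83.9%, 70.2% and 70.4% in intervention libraries, 87.7%, 75.0% and 77.7% in experimental libraries, and 63.6%, 56.8% and 55.7% in control libraries. Both groups lay above control and overlapped each other, at 1.27 times the control ratio in the intervention group and 1.36 times it in the experimental group.

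Exact permutation tests (two-sided) of these log2 ratios gave p = 0.1 for 8 of the 9 comparisons, the smallest value that 3 libraries against 3 allow, and an adjusted p of 0.113 over the 9 tests. The design could therefore not reach 0.05 for any of them. For Psmb10 to Psmb7 between intervention and experimental libraries the exact permutation p was 0.5. Summed over the 6 genes, the immunoproteasome share of catalytic FPKM was 14.4% ± 0.991 in the intervention, 15.5% ± 1.2 in the experimental and 10.2% ± 0.791 in the control group (SD, n = 3 each). Psmb10 made up most of the immunoproteasome sum in every group, so the share moved less than the Psmb8 and Psmb9 ratios. A ratio shows unequal change of its members and not that either stayed level.

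**Figure D3:**
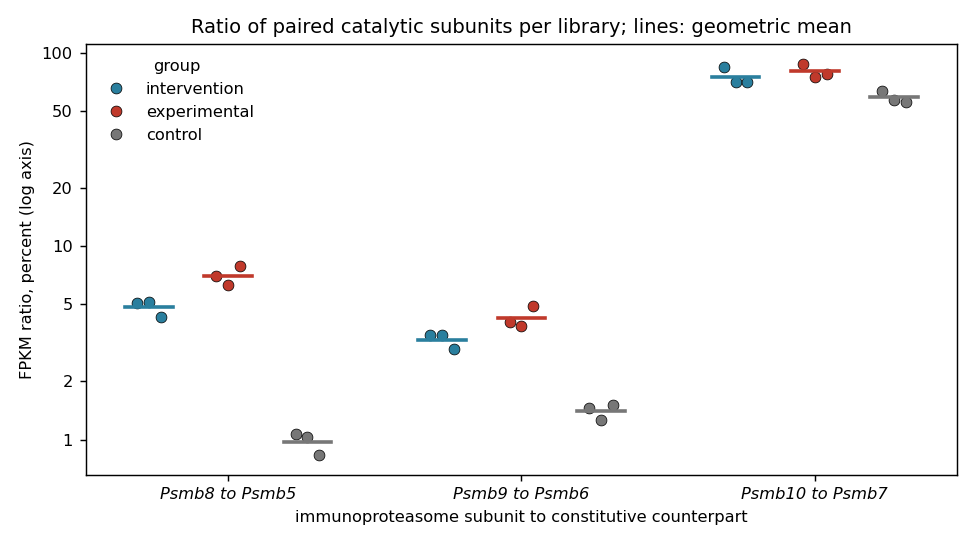
Ratio of FPKM of each immunoproteasome subunit to its constitutive counterpart, in percent on a log axis, per library (points), with the geometric mean of each group (lines, n = 3). The Psmb8 to Psmb5 points are at 4.30% to 5.14% in intervention, 6.33% to 7.88% in experimental and 0.832% to 1.07% in control libraries.

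Among the activators, Psme1 was at 19.01, 18.98 and 14.2 FPKM in intervention libraries, at 15.8, 20.2 and 17.2 FPKM in experimental libraries, and at 10.5, 10.3 and 13.4 FPKM in control libraries. No control library reached the lowest library of the other groups, although control 3 came close to intervention 3. The log2 difference was 0.56 ± 0.14 (limma adjusted p = 0.0167) for intervention against control and 0.60 ± 0.14 (limma adjusted p = 0.00906) for experimental against control. The experimental call held under all 16 other settings. The intervention call was lost without intervention 1, intervention 2, control 1 or control 2 (limma adjusted p of 0.055 to 0.065).

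Psme2, the partner of Psme1 that lies 5911 bases from it on chromosome 14, was at 14.05, 9.89 and 7.96 FPKM in intervention libraries, at 9.77, 12.6 and 9.63 FPKM in experimental libraries, and at 4.99, 6.19 and 7.55 FPKM in control libraries. The intervention libraries spread widely, and the lowest of them was just above control 3. The log2 difference was 0.67 ± 0.19 (limma adjusted p = 0.0309) for intervention against control and 0.69 ± 0.19 (limma adjusted p = 0.0198) for experimental against control. The experimental call was lost without experimental 2 or control 1 (limma adjusted p of 0.0691 to 0.0746). The intervention call was lost without intervention 1, intervention 2, control 1 or control 2 (limma adjusted p of 0.0597 to 0.105), and with the replicate block its adjusted p was 0.0623.

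Reads of Psme2 are uncertain, because the gene Psme2b on chromosome 11 is 99.4% identical to a Psme2 transcript over 794 aligned bases. Psme2b was at 10.2, 9.34 and 8.76 FPKM in intervention libraries, at 12.2, 10.1 and 10.6 FPKM in experimental libraries, and at 7.72, 5.89 and 6.42 FPKM in control libraries. It rose too, by 0.45 ± 0.11 in the intervention group (limma adjusted p = 0.013) and by 0.64 ± 0.11 in the experimental group (limma adjusted p = 0.00135), both against control. How reads were split between both genes was not tested.

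Psme3 encodes PA28 gamma, a nuclear activator that is not known as an interferon-induced gene. Its level was 27.2, 30.6 and 30.9 FPKM in intervention libraries, 29.6, 29.7 and 28.8 FPKM in experimental libraries, and 34.9, 34.3 and 35.3 FPKM in control libraries. All control libraries lay above all others. Psme3 fell by 0.23 ± 0.07 in the intervention group (limma adjusted p = 0.0334) and by 0.24 ± 0.07 in the experimental group (limma adjusted p = 0.0224). The intervention call was lost without intervention 1, control 1, control 2 or control 3 (limma adjusted p of 0.0733 to 0.0912). The experimental call was lost without experimental 1, experimental 3, control 1, control 2 or control 3 (limma adjusted p of 0.0501 to 0.0661). In TPM the differences were -0.39 for intervention and -0.40 for experimental against control. With the replicate block the adjusted p was 0.0708 in the intervention and 0.051 in the experimental comparison. Psme4, which encodes the activator PA200, did not pass in either comparison.

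Over the 46 tested genes, 6 were higher and 1 was lower for intervention against control, where 16.9% of all genes tested were higher and 11.4% lower. For experimental against control, 5 were higher and 4 lower, where 19.9% of all genes tested were higher and 17.3% lower. The 46 genes were thus called at 15.2% and 19.6%, against 28.3% and 37.2% of all genes in the same comparisons. The size of this gap depends on the scaling. In TPM 11 (23.9%) and 19 (41.3%) of the 46 genes were called, beside 5328 and 6836 of all 14570 genes. These counts include Psmb8 and Psmb9, which passed the filter through the groups in which they were high. Groups did not overlap for 11 higher and 4 lower of the 46 genes in intervention against control, where the shares of all genes were 23.5% and 20.5%. In experimental against control they did not overlap for 11 higher and 7 lower, where the shares were 25.7% and 25.5%. The control libraries are the same in both comparisons.

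**Figure D4:**
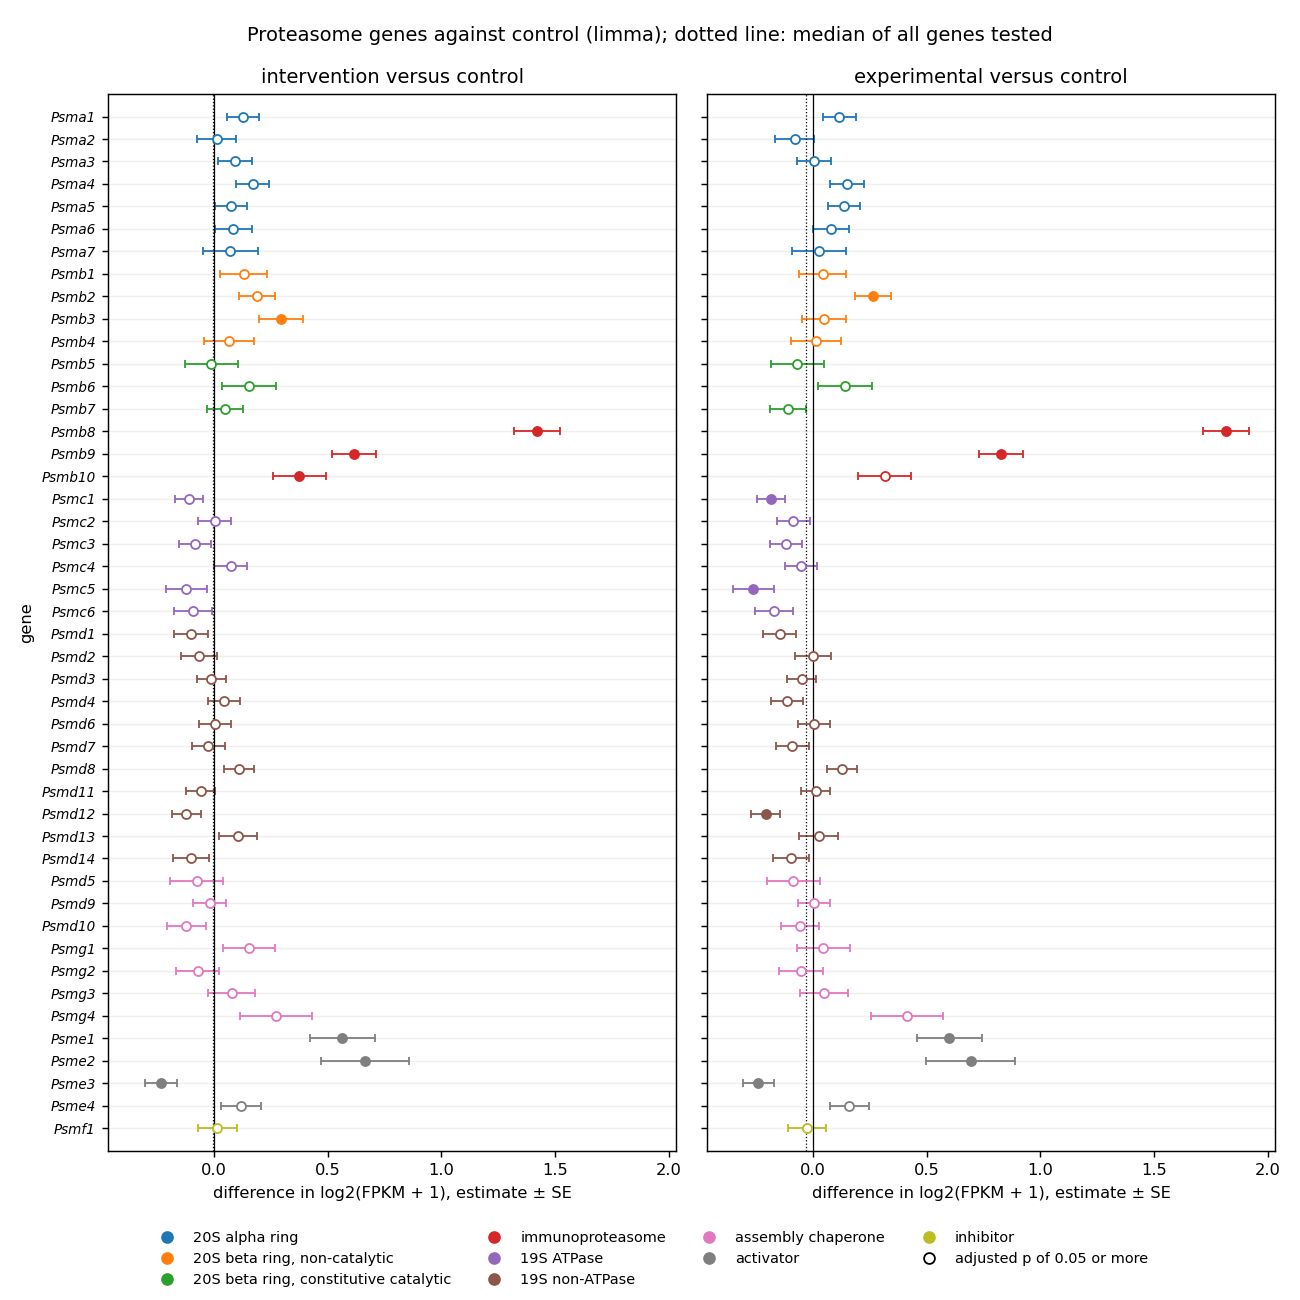
Difference in log2(FPKM + 1) ± SE (limma) of the 46 tested proteasome genes for intervention against control (left) and experimental against control (right), coloured by role; filled points have an adjusted p under 0.05 and the dotted line is the median of all genes tested. Psmb8 stands farthest from 0 at 1.42 on the left and 1.82 on the right.

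The constitutive core changed little as measured in FPKM. The median log2 difference of its 14 subunits was 0.09 for intervention against control, beside -0.0035 for all genes tested. For experimental against control it was 0.05, beside -0.03 for all genes. The sign of this median depends on the scaling: after rescaling to TPM it was -0.06 for intervention and -0.11 for experimental against control. That rescaling also moved the median of all genes to -0.15 in the intervention and -0.18 in the experimental comparison. Relative to the median of all genes, the core stood at 0.09 in FPKM and 0.09 in TPM for intervention against control, and at 0.07 in FPKM and 0.07 in TPM for experimental against control. After quantile normalization it stood farther above the median of all genes, at 0.19 for intervention and 0.17 for experimental against control. There 3 of the 14 subunits were higher in each comparison, where 13.8% and 17.4% of all genes were higher.

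In FPKM, 1 of the 14 core subunits passed in each comparison with control, and both are structural subunits of the beta ring. Psmb2 was at 40.1, 35.0 and 34.9 FPKM in intervention libraries, at 39.5, 40.6 and 35.9 FPKM in experimental libraries, and at 31.8, 32.2 and 31.9 FPKM in control libraries. Its control libraries were the lowest and nearly equal. Psmb2 rose by 0.27 ± 0.08 in experimental against control (limma adjusted p = 0.0244), and for intervention against control the value was 0.19 ± 0.08 (limma adjusted p = 0.097). The call was lost without experimental 1, experimental 2, control 1, control 2 or control 3 (limma adjusted p of 0.0588 to 0.0789), and in TPM the adjusted p was 0.209.

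Psmb3 was at 23.0, 19.5 and 20.99 FPKM in intervention libraries, at 17.7, 19.4 and 15.9 FPKM in experimental libraries, and at 15.5, 18.4 and 17.3 FPKM in control libraries. Here the intervention libraries were the highest, and the experimental and control libraries overlapped. Psmb3 rose by 0.29 ± 0.10 in intervention against control (limma adjusted p = 0.0489), while experimental against control gave 0.05 ± 0.10 (limma adjusted p = 0.722). The call was lost without intervention 1, intervention 3, experimental 1, control 1, control 2 or control 3 (limma adjusted p of 0.0544 to 0.16), in TPM (adjusted p = 0.209) and with the replicate block (adjusted p = 0.089).

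In the alpha ring, the gate of the core, none of the 7 genes passed. Psma4 had the smallest p, with 30.6, 27.6 and 26.4 FPKM in intervention libraries, 27.6, 29.0 and 26.7 FPKM in experimental libraries, and 25.6, 24.8 and 24.2 FPKM in control libraries. Both groups lay above control without overlap, by 0.17 ± 0.07 in the intervention group (limma adjusted p = 0.11) and by 0.15 ± 0.07 in the experimental group (limma adjusted p = 0.136). After quantile normalization Psma4 passed in both comparisons, at limma adjusted p = 0.0473 for intervention and 0.0333 for experimental against control. In TPM its differences were 0.026 for intervention and -0.0057 for experimental against control, and it passed in neither. There all 7 alpha genes were below 0 in experimental against control, with a median of -0.08 beside -0.18 for all genes. Of these 7, 1 passed as lower, where 32% of all genes were lower.

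Of the 17 subunits of the 19S cap, none passed in intervention against control and 3 (17.6%) were lower in experimental against control, near the 17.3% of all genes. The median log2 difference was -0.06 for intervention and -0.09 for experimental against control. In TPM 5 of 17 (29.4%) were lower in the intervention group, where 24.9% of all genes were lower, and 12 of 17 (70.6%) in the experimental group, where 32% of all genes were lower. The TPM differences of Psmc1, Psmc5 and Psmd12 in experimental against control were -0.35, -0.42 and -0.37. After quantile normalization the median of the experimental comparison was -0.04, above the -0.08 of all genes, so that the position of the cap relative to all genes changed side with the scaling.

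Psmc5, an ATPase that helps unfold substrates and has the highest control level of the 48 genes, was at 93.4, 77.8 and 78.8 FPKM in intervention libraries, at 74.4, 80.8 and 70.8 FPKM in experimental libraries, and at 93.2, 87.7 and 90.1 FPKM in control libraries. Every experimental library was below every control library, whereas intervention 1 was the highest of all 9 libraries. Psmc5 fell by 0.26 ± 0.09 in experimental against control (limma adjusted p = 0.0434), and for intervention against control the value was -0.12 ± 0.09 (limma adjusted p = 0.341). The call was lost without intervention 3, experimental 1, experimental 3, control 1, control 2 or control 3 (limma adjusted p of 0.05 to 0.132) and with the replicate block (adjusted p = 0.0664).

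Psmc1, another ATPase of the cap, was at 62.3, 62.3 and 63.4 FPKM in intervention libraries, at 58.6, 61.8 and 58.2 FPKM in experimental libraries, and at 69.9, 65.8 and 67.3 FPKM in control libraries. The intervention libraries lay between the other groups without overlap. Psmc1 fell by 0.18 ± 0.06 in experimental against control (limma adjusted p = 0.0437), and intervention against control gave -0.11 ± 0.06 (limma adjusted p = 0.219). The call was lost without intervention 2, intervention 3 or any single experimental or control library (limma adjusted p of 0.0535 to 0.139) and with the replicate block (adjusted p = 0.0971).

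Psmd12, a structural subunit of the lid of the cap, was at 23.1, 23.9 and 21.8 FPKM in intervention libraries, at 21.3, 22.1 and 21.2 FPKM in experimental libraries, and at 25.1, 24.2 and 25.7 FPKM in control libraries. Control libraries were the highest. Psmd12 fell by 0.21 ± 0.06 in experimental against control (limma adjusted p = 0.03), and intervention against control gave -0.12 ± 0.06 (limma adjusted p = 0.19). The call was lost without experimental 1, experimental 3, control 1 or control 3 (limma adjusted p of 0.0785 to 0.0965) and with the replicate block (adjusted p = 0.0707).

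None of the 7 assembly chaperones, which help build the core and the cap, passed. Psmg4 came nearest, with 10.8, 6.83 and 6.995 FPKM in intervention libraries, 7.47, 10.2 and 9.48 FPKM in experimental libraries, and 6.52, 6.49 and 6.44 FPKM in control libraries. The control libraries were nearly equal and the lowest, while the other groups spread widely. The log2 difference was 0.27 ± 0.16 (limma adjusted p = 0.224) for intervention against control and 0.41 ± 0.16 (limma adjusted p = 0.0659) for experimental against control. Without intervention 1 the intervention difference was 0.08. The experimental difference passed without intervention 1 (limma adjusted p = 0.0126), without experimental 1 (0.0354) and with only the groups compared (0.0202). In TPM 1 of the 7 chaperones passed as lower in intervention against control (limma adjusted p = 0.0399), where 24.9% of all genes were lower.

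The inhibitor gene Psmf1, which encodes PI31, was at 5.45, 5.47 and 4.71 FPKM in intervention libraries, at 4.85, 5.53 and 4.74 FPKM in experimental libraries, and at 5.33, 4.72 and 5.38 FPKM in control libraries. The 3 groups overlapped (limma adjusted p = 0.906 for intervention and 0.841 for experimental against control). Psma8, an alpha subunit of the testis, was under the filter at 0.202, 0.412 and 0.138 FPKM in intervention libraries, at 0.529, 0.302 and 0.220 FPKM in experimental libraries, and at 0.108, 0.0827 and 0.0501 FPKM in control libraries. Its control libraries were the lowest (exact permutation p = 0.1 against either group, the smallest possible). Psmb11 had at most 0.0635 FPKM in any library, which was control 2, and the groups overlapped.

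**Figure D5:**
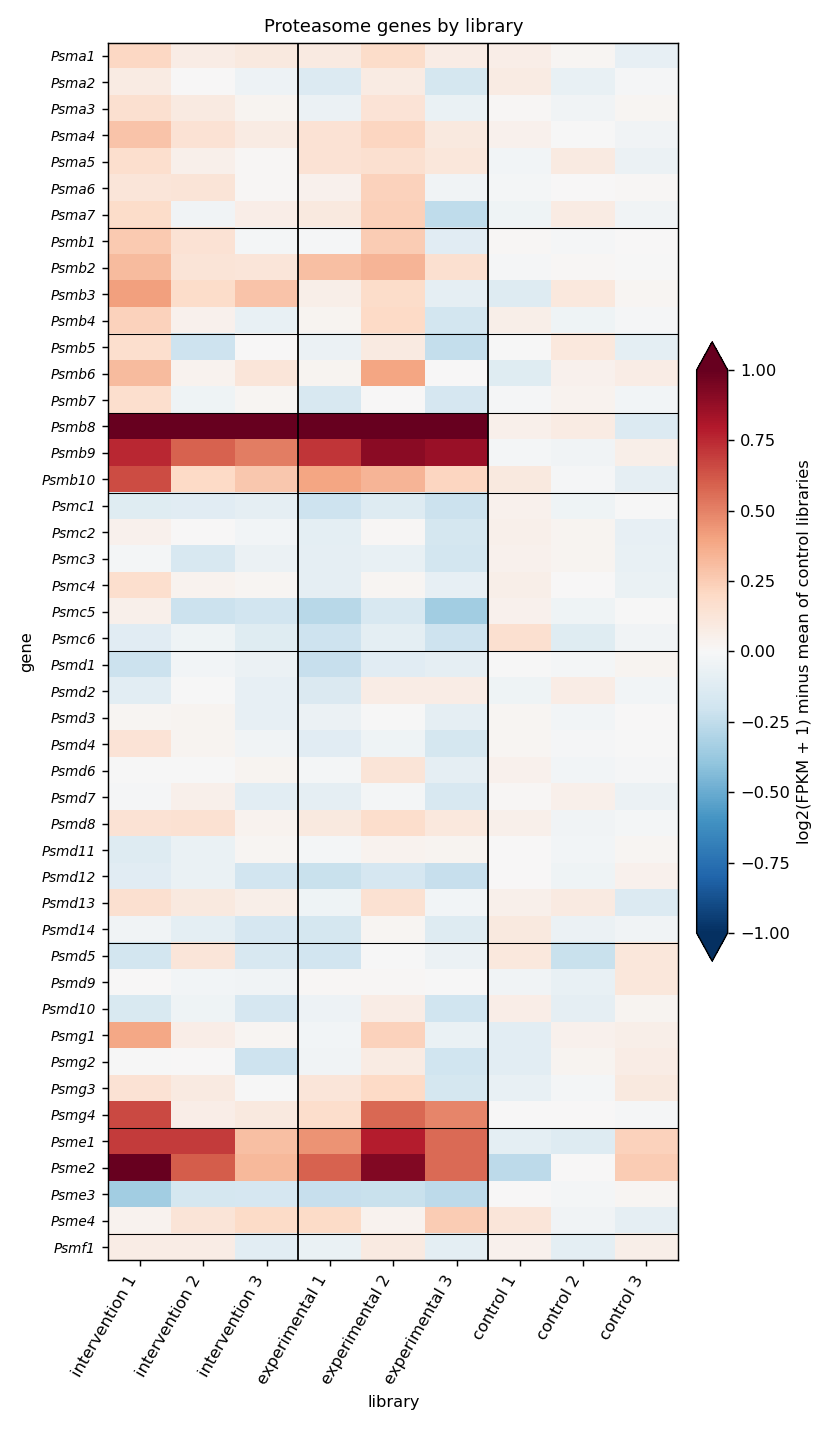
Difference of log2(FPKM + 1) from the mean of the control libraries for the 46 tested proteasome genes (rows, by role) in the 9 libraries (columns, intervention, experimental, control), with the colour scale limited to -1 and 1. Psmb8, Psmb9, Psme1 and Psme2 are above the control mean in all 6 intervention and experimental libraries, and Psme3 is below it in all 6.

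Some calls of these genes against control also ended under other processing. With no filter on low values, the limma adjusted p for intervention against control was 0.0535 for Psme1, 0.098 for Psme2, 0.0988 for Psmb10 and 0.101 for Psmb3. In experimental against control it was 0.067 for Psme2 and 0.0782 for Psmc5. After quantile normalization the limma adjusted p of Psme3 was 0.0912 for intervention and 0.0993 for experimental against control, and that of Psmd12 was 0.0628 for experimental against control. With only the groups compared in the fit, limma gave an adjusted p of 0.0662 for Psmb10, 0.0633 for Psme3 and 0.0562 for Psmb3 in intervention against control, and 0.0658 for Psmc1 in experimental against control.

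Intervention and experimental libraries were compared to ask which proteasome genes differ between them. By limma, none of the 46 genes passed in either direction, and the share called among all genes tested was 0. At an unadjusted p under 0.05, 1 of the 46 genes was higher and 1 was lower, while 417 of all 14570 genes tested were higher and 935 lower. Psmb8 had the smallest p, at 3.72 ± 0.615 FPKM in intervention and 5.17 ± 0.0288 FPKM in experimental libraries (SD, n = 3 each). The groups did not overlap, and the log2 difference was -0.39 ± 0.10 (limma adjusted p = 0.191). The other genes with the smallest p were Psmb3 (0.24 ± 0.10), Psmd4, a ubiquitin receptor of the cap (0.15 ± 0.07), Psmb9 (-0.21 ± 0.10) and Psmb7 (0.16 ± 0.08), with limma adjusted p from 0.458 to 0.614. Groups did not overlap for 4 higher genes, which were Psmb3, Psmc1, Psmc4 and Psmd4 (named after their values were seen), and for 1 lower gene, Psmb8. Among all genes tested these shares were 5.07% higher and 8.16% lower.

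The ratio of Psmb8 to Psmb5 in the intervention group was 0.685 times that of the experimental group, and the ratio of Psmb9 to Psmb6 was 0.773 times that of the experimental group, without overlap in either. For Psme1 the difference was -0.03 ± 0.14 (limma adjusted p = 0.981), and for Psme2 it was -0.03 ± 0.19 (limma adjusted p = 0.989). A p above the threshold does not show that these genes were alike in both groups.

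Other genes of the pathway were counted in the same fits, where 16.9% of all genes were higher and 11.4% lower for intervention against control, and 19.9% were higher and 17.3% lower for experimental against control. Of 12 proteasome partners outside the symbol rule, 0 were higher and 4 lower for intervention against control, and 0 were higher and 5 lower for experimental against control. Usp14, a deubiquitinase of the cap, was at 14.3 ± 1.02 FPKM in the intervention, 13.2 ± 0.819 FPKM in the experimental and 18.4 ± 1.33 FPKM in the control group (n = 3 each). Usp14 fell by 0.34 ± 0.08 in the intervention (limma adjusted p = 0.0142) and by 0.45 ± 0.08 in the experimental group (limma adjusted p = 0.00223). Nfe2l1, the transcription factor known for raising proteasome genes when proteasome activity is blocked, fell by 0.28 ± 0.06 in the intervention (limma adjusted p = 0.00807) and by 0.34 ± 0.06 in the experimental group (limma adjusted p = 0.00209).

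Of 14 ubiquitin and shuttle genes, 2 were higher and 4 lower for intervention against control, where 16.9% of all genes were higher and 11.4% lower. For experimental against control 2 were higher and 6 lower, where 19.9% of all genes were higher and 17.3% lower. Rad23b, a shuttle that carries ubiquitin-tagged proteins to the cap, fell by 0.25 ± 0.06 in the intervention (limma adjusted p = 0.0169) and by 0.28 ± 0.06 in the experimental group (limma adjusted p = 0.00706). Ubqln2, another such shuttle, fell by 0.33 ± 0.10 in the intervention (limma adjusted p = 0.0332) and by 0.43 ± 0.10 in the experimental group (limma adjusted p = 0.00709). In both comparisons with control, the medians of the partner and of the ubiquitin and shuttle genes were below 0 in FPKM, TPM and after quantile normalization. The median of all genes was below 0 there too, and these medians lay below it. Between intervention and experimental libraries the medians of both lists were above 0.

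Of 9 genes that carry interferon signals to immunoproteasome genes, 7 were tested, and 6 were higher in both comparisons with control, where 16.9% (intervention) and 19.9% (experimental) of all genes were higher. That count includes Irf8, which was under 1 FPKM in every control library. Irf8, a transcription factor of myeloid cells, was at 4.28, 3.10 and 3.03 FPKM in intervention libraries, at 4.69, 5.0 and 5.38 FPKM in experimental libraries, and at 0.731, 0.635 and 0.741 FPKM in control libraries. The 3 groups did not overlap, and the experimental group was highest. Irf8 rose by 1.38 ± 0.11 in the intervention (limma adjusted p = 2.27e-05) and by 1.82 ± 0.11 in the experimental group (limma adjusted p = 2e-06), both against control. The receptor genes Ifngr1 and Ifnar2 also passed in both comparisons. Nlrc5 and Ifng were under the filter, and interferon gamma itself (Ifng) was at 0.0584 FPKM or less in every library, and at 0 in 6 of the 9.

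Markers of several cell types also differed between the groups. The summed FPKM of 7 microglial markers, each of which rose in both comparisons with control, was 468.2 to 593.2 in intervention, 560.8 to 689.4 in experimental and 123.7 to 142.6 in control libraries. That of 5 monocyte and macrophage markers was 127.3 to 174.0 in intervention, 240.4 to 261.0 in experimental and 11.1 to 11.7 in control libraries. Nearly all of this sum came from Lyz2 and Cd68, with experimental means of 172.7 and 71.3 FPKM. The experimental means of Ccr2, Ly6c2 and Ms4a7 were 1.09, 1.74 and 1.05 FPKM, so the sum says little about these. Endothelial markers (3 genes) summed to 51.5 to 59.3 in intervention, 70.9 to 82.6 in experimental and 25.6 to 27.6 FPKM in control libraries. Of the 5 monocyte and macrophage markers 3 reached the filter. For these 3 lists the median was highest in the experimental and lowest in the control group, the order also seen for Psmb8, and their part in the result was not tested.

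The summed FPKM of 4 neuronal markers, all of which fell in both comparisons with control, was 397.0 to 426.4 in intervention, 342.1 to 414.1 in experimental and 541.7 to 601.2 in control libraries. Markers of astrocytes (4 genes) summed to 516.4 to 569.8 in intervention, 510.7 to 524.5 in experimental and 360.7 to 392.4 FPKM in control libraries. Markers of oligodendrocytes (3 genes) summed to 825.1 to 1332 in intervention, 911.5 to 1056 in experimental and 717.5 to 865.2 FPKM in control libraries. Markers of neurons and glia were thus all present, as the label of brain tissue has it. The 5 lymphocyte markers summed to at most 0.790 FPKM in intervention, 0.404 FPKM in experimental and 0.184 FPKM in control libraries, none of them reached the filter, and 1 of them was at 0 in all control libraries. In bulk tissue, fewer cells of a type and less RNA per cell cannot be told apart.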

How the data were processed

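Gene expression in 9 mouse brain libraries (3 intervention, 3 experimental, 3 control, grouped by sample title) was read from the table that the authors deposited, which holds an FPKM value for each gene in each library, per the file headers. The submitters' processing notes name the build mm10. The labels' protocols name a Qiagen RNeasy kit for the RNA and a SMARTer kit for the mRNA-seq libraries. The sources used here do not give the aligner, the counting tool or the use of strand. Of 33586 entries (33516 distinct symbols), 14570 with at least 1 FPKM in 3 or more libraries were tested on log2(FPKM + 1) with limma 3.58.1 (intensity trend, R 4.3.3), all 9 libraries in 1 fit with a mean per group, two-sided, with Benjamini-Hochberg adjustment and a threshold of 0.05. The fit was also run on simulated data with independent noise for each gene and library and changes added to the experimental group. That setting cannot show how scaling or single libraries affect the calls. Ratios of paired subunits and genes under the filter were tested with the exact permutation test of scipy 1.17.1.

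The genes and lists were chosen with earlier results of these data known. Values of every library are given for Psmb5 to Psmb10, Psme1, Psme2 and the gene with the smallest adjusted p of each other role in experimental against control. Also named are the 5 genes with the smallest p between intervention and experimental libraries, genes that passed in 1 comparison with control only (at most 6), genes under the filter, and up to 4 other pathway genes per direction. Psme3, Psme4, Psmc1 and Psmc4 are named beyond or beside that rule, and Irf8, Ifngr1, Ifnar2, Nfe2l1, Usp14, Rad23b and Ubqln2 by it. Paaf1 of the partner list had no entry under that symbol and was not used here. A gene that the rule names is not reported here. Positions and overlaps come from GENCODE M21 (mm10), in which all 48 symbols were found, and promoter windows from RefSeq (GRCm38.p6). Alternatives were a pseudocount of 0.1, no filter, 1 FPKM in all 9 libraries, rescaling to TPM, quantile normalization, only the groups compared, the replicate number as a block, and leaving out each library.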

Additional observations from a re-analysis of the deposited data

How the results depend on the processing

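Of 16 calls among the named proteasome genes, 5 held under every alternative that tested the gene: Psmb8 and Psmb9 in both comparisons with control, and Psme1 in experimental against control. No call changed direction. The stricter filter did not test Psmb8 and Psmb9, which were under 1 FPKM in every control library. Except with no filter, the settings tested these 2 genes only through the libraries in which they were higher. That their calls held under those settings is therefore no added support. Precision is limited by 3 libraries per group, and the absolute depth behind the low values of Psmb8 and Psmb9 in control is uncertain. For counts that moved by over 1.5 times the cause was not tested.

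Proteasome genes higher in experimental against control numbered 5 of 46 and were 3 to 7 with a library left out. They were 3 under the stricter filter, where 2100 of all 12414 genes tested were higher. After quantile normalization they were 9, where 17.4% of all genes were higher. Proteasome genes lower in that comparison numbered 4 and were 0 to 4 with a library left out. In TPM they were 15 of 46, where 32% of all genes were lower. After quantile normalization they were 2, where 3189 of all 14570 genes were lower. Proteasome genes higher in intervention against control numbered 6 and were 2 to 6 with a library left out. With no filter they were 2 of 48, where 2217 of all 33586 genes were higher. The 1 lower gene in that comparison was 7 in TPM, where 24.9% of all genes were lower, and 0 to 1 with a library left out. No proteasome gene was lower after quantile normalization or with only the groups compared, where 2041 and 1375 of all 14570 genes were lower. Over all genes, those lower in experimental against control numbered 2521 and were 4661 in TPM and 1706 to 2579 with a library left out. Those higher numbered 2894 and were 2409 to 2903 with a library left out. Those lower in intervention against control numbered 1659 and were 1069 with no filter, 3622 in TPM and 854 to 1581 with a library left out, 854 being without intervention 1. Those higher numbered 2461 and were 1814 to 2366 with a library left out. Between intervention and experimental libraries no gene passed, against 2 higher and 33 lower after quantile normalization and 0 to 1 in each direction with a library left out.

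The labels do not say whether same-numbered libraries are paired. Deviations of same-numbered libraries from their group means correlated at 0.209, -0.356 and 0.202 for experimental and control libraries. For intervention and control libraries they correlated at -0.0612, -0.409 and -0.536, and for intervention and experimental libraries at -0.169, 0.201 and -0.106. Libraries with different numbers correlated at -0.534 to 0.493. With 3 libraries per group these values cannot decide whether the samples are paired. With the replicate number as a block, proteasome genes lower than control were 0 in the experimental and 0 in the intervention comparison. Over all 14570 genes, 2036 and 1149 were lower in these comparisons. Proteasome genes higher than control in that fit were 6 in the experimental and 4 in the intervention comparison, beside 2666 and 2102 of all genes.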
